A study of Mus musculus with 6 samples.

Results

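The genes described here encode the enzymes, carriers and regulators of glycolysis and of the pentose phosphate pathway, measured in mouse LT-HSC, long-term haematopoietic stem cells, from which transplanted marrow regrows every kind of blood cell. The list holds 35 genes, chosen by their place in the pathway. A gene was followed through the probe sets that the platform annotation gives to it alone, and where it had several, through the one with the highest mean over the arrays. By this rule 30 of the 35 genes had a probe set, out of 22180 genes in all. Aldoa and Tkt are listed only on probe sets shared with another symbol, and Gpi1, Eno1 and G6pdx carry no entry of their own in the annotation used, so these 5 were not analysed here. All 30 passed the filter on dim genes, which kept 16635 genes for testing.

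The study hybridised 6 arrays. In 3 of them the RNA came from LT-HSC of a pool of control animals, and in the other 3 from LT-HSC of a pool of animals expressing NPMc+, the mutant nucleophosmin of acute myeloid leukaemia that is displaced to the cytoplasm. Both groups were C57/BL6 bone marrow, sorted by FACS 4 months after a bone marrow transplantation, and about 5 ng of total RNA was amplified per sample. The labels give no promoter or Cre driver for the mutant, no age and no number of animals per pool. The series title places the comparison in a study of stem cell dormancy and self-renewal during leukaemia development.

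Glycolysis splits glucose into pyruvate in the cytoplasm, and pyruvate is then either reduced to lactate or passed into the mitochondrion. The pentose phosphate pathway branches off at glucose 6-phosphate and yields NADPH and ribose for nucleotides. Stem cells of the marrow live at low oxygen and are known to lean on glycolysis; the transcription factor HIF-1 switches on many of its genes, and pyruvate dehydrogenase kinases hold pyruvate back from the mitochondrion.

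Same-numbered arrays were tied in the deposited table: the mean of control and NPMc+ was equal for replicates 1, 2 and 3 within 0.001 log2 units in 100% of the 41345 probe sets. The values of a pair therefore mirror each other around 1 mean per gene, and only the 3 differences within pairs vary independently. For the same reason the groups of a gene do not overlap exactly when its 3 pairs have 1 sign. Values are log2 expression after RMA normalization, differences are NPMc+ minus control, and each is given with the SE of a limma fit with the pair as a block (n = 3 pairs). Npm1 itself differed by -0.19 ± 0.18, which does not check the labels, since they do not say whether its probe set reads the mutant. The pools differed in sex-linked RNA: Xist differed by -5.44, -5.39 and 0.48 in pairs 1, 2 and 3. The Y-linked genes were not alike in pairs 1 and 2. Eif2s3y differed by 5.49, 0.36 and -0.79, Uty by 4.68, 0.93 and 0.35, and Kdm5d by 3.48, 1.29 and -0.67. Neutrophil and monocyte markers were lower in NPMc+ in pairs 1 and 2, with medians over 15 genes of -1.43 and -1.08, against -0.04 in pair 3. Other lists had medians away from 0 in pair 3 too: the median over 9 B cell markers was -1.25, -1.41 and -1.20 in pairs 1, 2 and 3, with 9 of 9 below 0 in the mean of the pairs, that over 9 erythroid markers -0.94, -0.35 and -0.77, with 9 of 9 below 0 in that mean, and that over 7 megakaryocyte markers 0.99, 0.88 and 0.78, with 7 of 7 above 0. The 10 T and NK cell markers had medians of -0.22, -0.33 and -0.79 but ran both ways. In the mean of the pairs 7 lay below 0 and 3 above, namely Gzmb, Nkg7 and Klrb1c, which were higher in every pair. The 7 markers of mast cells, basophils and eosinophils had medians of 0.67, 0.06 and -0.82, with 4 above 0 and 3 below in that mean. The part of these cells in the results was not tested. The mean level of the neutrophil and monocyte markers was 9.29 to 9.93 on the control arrays and 8.62 to 9.26 on the NPMc+ arrays, and that of 11 stem cell markers was 5.92 to 6.01 and 6.48 to 6.57. The medians over the 11 stem cell markers were 0.41, 0.57 and 0.70 in pairs 1, 2 and 3. In the mean of the pairs 10 lay above 0 and 1 below, with Fgd5 at -0.20 and Procr near level at 0.08. Averaged over a group, the stem cell marker Kit read 8.94 in control and 9.37 in NPMc+, Slamf1 4.76 and 5.16, and the neutrophil gene S100a8 12.65 and 12.21. Fewer cells of a type and less RNA per cell cannot be told apart in such samples.

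None of the 30 genes passed the adjusted threshold of 0.05 in limma; the smallest adjusted p among the 30 was 0.485. At an unadjusted p under 0.05, 3 were higher in NPMc+, namely Hk2, Hk3 and Pfkl, and 0 were lower. Over all genes tested, 5.95% were higher and 3.02% lower at that p, and 0% passed after adjustment. Without pair 1 the count was 5 higher and 1 lower, beside 5.61% and 2.61% of all genes tested. It was 1 higher without pair 2 or without pair 3, beside 4% and 4.62% of all genes. A fit that ignores the pairs gave 7 higher, beside 15% of all genes. The hexokinases Hk2 and Hk3 trap glucose in the cell as glucose 6-phosphate, and Pfkl is the liver-type subunit of phosphofructokinase, which carries out the first committed step of glycolysis. No test by step was run, and the other hexokinase, Hk1, and the other subunits, Pfkm and Pfkp, were not past that p. The median difference over the 30 genes was 0.11 log2 units, beside 0.03 over all genes tested. Of the 30, 20 lay above 0 and 10 below, where 45.1% of all genes tested lay below. The 3 pairs had 1 sign in 4 genes, all higher, Slc2a1, Hk2, Hk3 and Aldoc, beside 17.4% of all genes tested that were higher and 12.8% that were lower in every pair.

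**Figure D1:**
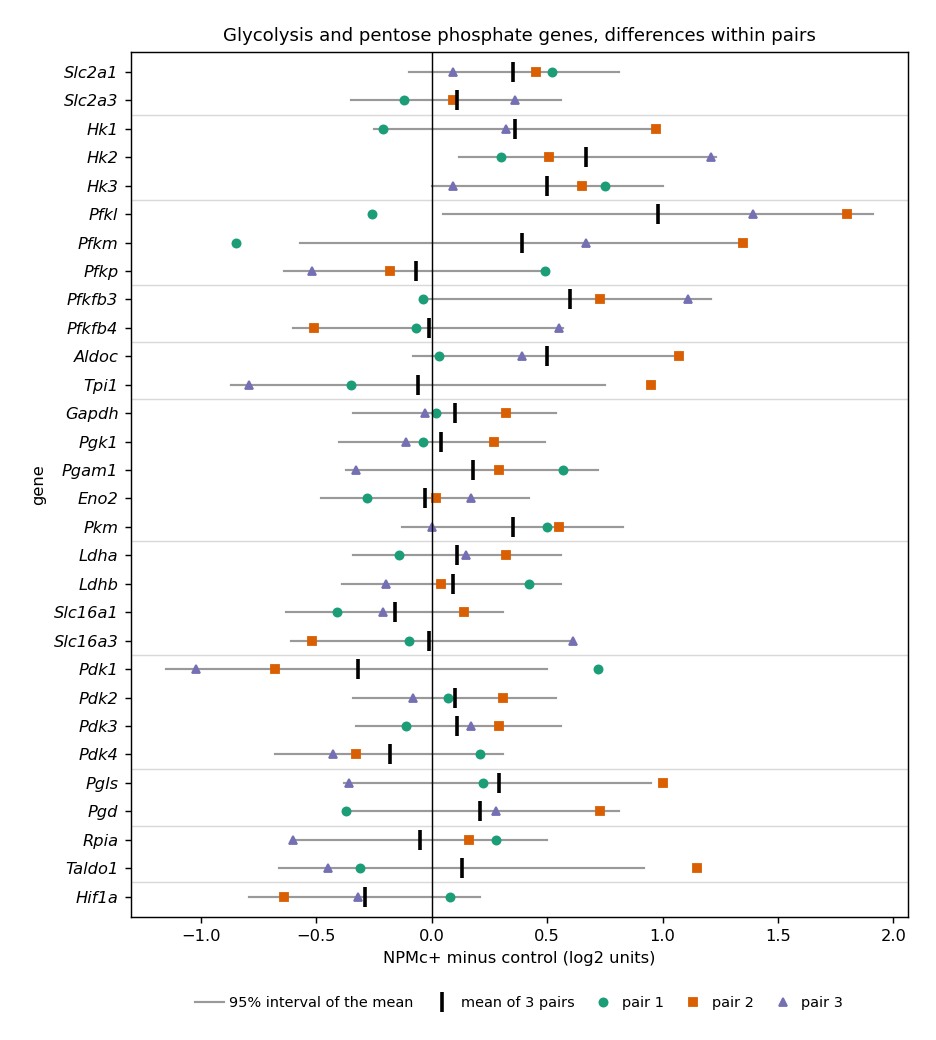
NPMc+ minus control in log2 units (x axis) for the 30 genes in pathway order (y axis, grey rules between steps), with 1 symbol per pair, a black bar for the mean and a grey line for the 95% interval from limma. The intervals of Hk2, Hk3 and Pfkl lie above 0 and those of the other 27 genes hold 0; the pair 2 squares lie far to the right for Tpi1 (0.95) and Taldo1 (1.15), whose other pairs lie below 0.

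The promoters of the 3 genes at unadjusted p under 0.05 are shown because HIF-1, whose oxygen-regulated subunit is Hif1a, binds a short core motif in many glycolytic promoters. They run from 250 bases before to 50 bases after the start of transcription, from RefSeq on GRCm38.p6, and capitals mark ACGTG or GCGTG on either strand (CACGT or CACGC when read on the strand printed). The Hk2 window is chr6:82774405-82774704 on the minus strand, the Hk3 window chr13:55021336-55021635 on the minus strand and the Pfkl window chr10:78009758-78010057 on the minus strand.
Hk2: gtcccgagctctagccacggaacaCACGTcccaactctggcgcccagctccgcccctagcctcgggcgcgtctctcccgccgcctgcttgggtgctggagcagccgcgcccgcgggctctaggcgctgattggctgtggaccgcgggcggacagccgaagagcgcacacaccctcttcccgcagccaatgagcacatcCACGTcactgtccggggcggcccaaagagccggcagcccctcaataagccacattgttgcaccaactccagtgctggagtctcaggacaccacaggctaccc
Hk3: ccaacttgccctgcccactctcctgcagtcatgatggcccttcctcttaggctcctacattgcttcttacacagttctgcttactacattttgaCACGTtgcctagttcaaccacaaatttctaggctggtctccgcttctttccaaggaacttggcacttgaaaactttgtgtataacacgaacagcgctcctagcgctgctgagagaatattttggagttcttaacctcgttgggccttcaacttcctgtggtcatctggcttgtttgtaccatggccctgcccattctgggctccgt
Pfkl: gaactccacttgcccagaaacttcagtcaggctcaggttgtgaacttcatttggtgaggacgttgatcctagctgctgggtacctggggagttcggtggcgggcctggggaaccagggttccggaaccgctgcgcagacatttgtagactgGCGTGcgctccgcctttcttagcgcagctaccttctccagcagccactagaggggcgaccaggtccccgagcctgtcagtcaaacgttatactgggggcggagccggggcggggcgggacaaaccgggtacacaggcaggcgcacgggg
The Hk2 window holds 2 matches, and the Hk3 and Pfkl windows hold 1 each. A promoter was found by symbol for 34 of the 35 genes, taking the first listed where there were several, and 28 of them, or 82.4%, held at least 1 match. Among the first promoters of the genes tested on the arrays with an entry, 56.9% of 12895 did, and of all 27025 genes with a promoter on file 43.8% did. The motif holds a CpG, and the median GC content was 60.8% for the listed genes, 59% for the tested genes and 52.7% for the whole table. The E-box CACGTG, which overlaps ACGTG, stood in 5 of the 34 windows, or 14.7%, against 9.39% of tested genes. The windows of Ldha, with 7 matches, and Slc16a1, with 5, held the most among the listed genes, and those of Hk1, Gpi1, Aldoa, Tpi1, Eno2 and Pkm held 0. A match describes the letters of the window only.

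Glucose enters the cell through carriers of the Slc2a family. Slc2a1, the widely expressed GLUT1, read 7.51, 7.55 and 7.73 in controls 1, 2 and 3 and 8.04, 8.0 and 7.82 in the same-numbered NPMc+ samples. The NPMc+ values all lay above the controls, with the smallest step in pair 3. The difference was 0.35 ± 0.19 log2 units (95% interval -0.10 to 0.81, unadjusted p = 0.105 in limma). A second, dimmer probe set of Slc2a1 differed by -0.33, -0.18 and 0.65 in pairs 1, 2 and 3, so its pairs did not have 1 sign. Slc2a3, the high-affinity carrier GLUT3, differed by 0.11 ± 0.19, with pair 1 below 0.

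Hexokinases carry out the first step. Hk2, the inducible form found on mitochondria, read 6.31, 6.20 and 5.85 in the controls and 6.61, 6.71 and 7.06 in the NPMc+ samples. Every NPMc+ value was above every control, and pair 3 held the widest step, 1.21 log2 units against 0.30 and 0.51 in pairs 1 and 2. Hk2 was 1.60-fold higher (0.67 ± 0.23 log2 units, 95% interval 0.12 to 1.23, unadjusted p = 0.0238 and adjusted p = 0.485 in limma). Without pair 3 the difference was 0.41, no longer at an unadjusted p under 0.05.

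Hk3, the form best known from myeloid cells, read 6.11, 6.17 and 6.45 in the controls and 6.87, 6.82 and 6.54 in the NPMc+ samples. Here the step was wide in pairs 1 and 2, at 0.75 and 0.65, and 0.09 in pair 3, the reverse of Hk2. It was 1.41-fold higher (0.50 ± 0.21, unadjusted p = 0.0493 in limma, adjusted p = 0.554). Pairs 1 and 2 are also those in which the median of the neutrophil and monocyte markers was lower in NPMc+, with 12 of 15 below 0 in pair 1 and 14 of 15 in pair 2. Markers on the side of Hk3 were Cebpe, higher in every pair, and Ly6c2 and F13a1 in pair 1. The part of these cells in the Hk3 result was not tested. The difference was 0.41 after quantile normalization, 0.42 without pair 2 and 0.37 without pair 1, in each case no longer at an unadjusted p under 0.05. Hk1, the housekeeping form, read 6.99, 6.41 and 6.73 in the controls and 6.79, 7.37 and 7.05 in the NPMc+ samples. Its groups overlapped through pair 1, and the difference was 0.36 ± 0.26, or 0.06 without pair 2 and 0.64 without pair 1.

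Phosphofructokinase is built from 3 kinds of subunit, and their pair differences had different signs. Pfkl read 5.67, 4.64 and 4.85 in the controls and 5.42, 6.44 and 6.24 in the NPMc+ samples. NPMc+ was above control by 1.80 and 1.39 log2 units in pairs 2 and 3 and differed by -0.26 in pair 1, so the groups overlapped. The mean difference was 0.98 ± 0.39 (95% interval 0.05 to 1.91, unadjusted p = 0.0422, adjusted p = 0.542 in limma), a 1.97-fold difference with the largest size among the 30 genes. It was 0.57 without pair 2 and 0.77 without pair 3, neither at an unadjusted p under 0.05, and 1.60 without pair 1, which was.

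Pfkm, the muscle-type subunit, ran the same way by pair, at -0.85, 1.35 and 0.67, and its mean of 0.39 ± 0.40 had an interval from -0.57 to 1.35. Without pair 1 Pfkm differed by 1.01, which was past an unadjusted p of 0.05. With a mean of 4.21, the probe set of Pfkm lay near the array medians of 3.90 to 3.99. Pfkp, the platelet-type subunit, read 7.15, 7.48 and 7.66 in the controls and 7.64, 7.30 and 7.13 in the NPMc+ samples. Its pairs had the opposite signs, at 0.49, -0.18 and -0.52, with a mean of -0.07 ± 0.24. The differences between these subunits were not tested.

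Fructose 2,6-bisphosphate, the strongest activator of phosphofructokinase, is made and broken down by the Pfkfb enzymes. Pfkfb3, which mainly makes it, read 6.10, 5.72 and 5.53 in the controls and 6.07, 6.45 and 6.64 in the NPMc+ samples. NPMc+ was above control by 0.73 and 1.11 in pairs 2 and 3 and differed by -0.04 in pair 1, the order of signs seen in Pfkl. The mean was 0.60 ± 0.25 (1.52-fold, unadjusted p = 0.0531 in limma). It was 0.92 without pair 1, past an unadjusted p of 0.05, and 0.53 without pair 2 and 0.35 without pair 3, which were not. Pfkfb4 differed by -0.01 ± 0.24, with pairs between -0.51 and 0.55.

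**Figure D2:**
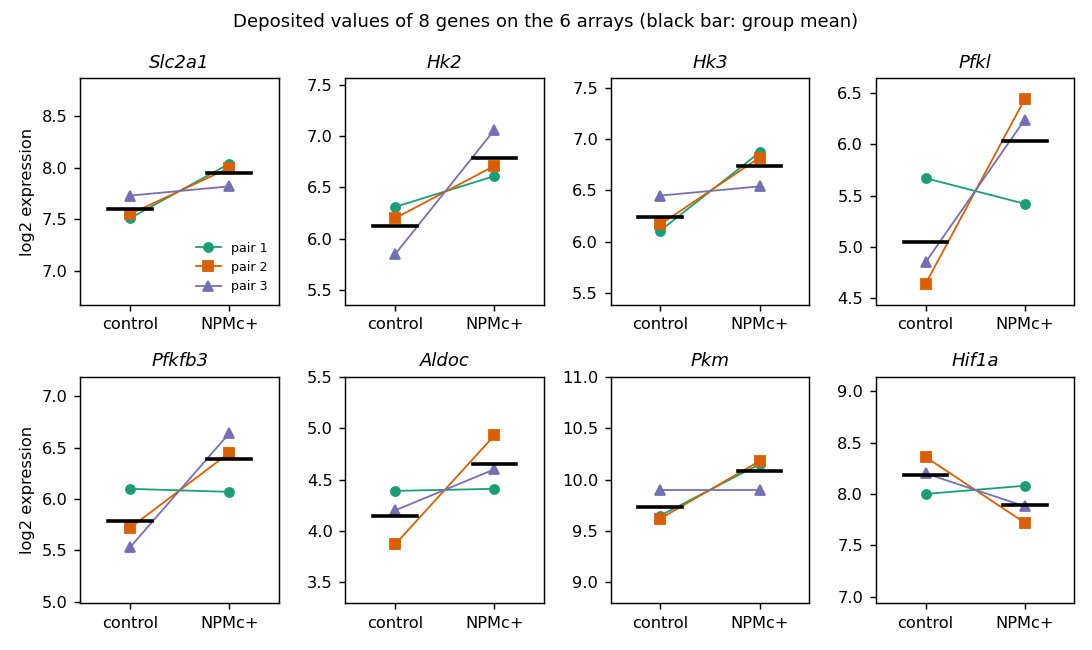
Deposited log2 expression (y axis, each panel spanning the same number of log2 units) of 8 genes in control and NPMc+ samples, with a line per same-numbered pair and a black bar for each group mean. Slc2a1, Hk2, Hk3 and Aldoc are higher in NPMc+ along all 3 lines, Pfkl is lower in pair 1 (5.42 against 5.67), Pkm is level in pair 3, and Hif1a is lower in pairs 2 and 3.

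Aldolase and triose phosphate isomerase close the upper part of the pathway. Aldoc, the brain-type aldolase, read 4.39, 3.87 and 4.20 in the controls and 4.41, 4.93 and 4.60 in the NPMc+ samples. With a mean of 4.40, its probe set lay near the array medians of 3.90 to 3.99. The step was 0.03 in pair 1 and 1.07 in pair 2, with a mean of 0.50 ± 0.24 (unadjusted p = 0.0821 in limma). The difference was 0.21 without pair 2, 0.55 without pair 3 and 0.73 without pair 1, of which the last was past an unadjusted p of 0.05. Tpi1, which converts the triose phosphates into each other, read 8.47, 7.82 and 8.69 in the controls and 8.12, 8.77 and 7.90 in the NPMc+ samples. Its pair 2 was higher by 0.95 and its other pairs were lower, at -0.35 and -0.79, so the mean of -0.06 ± 0.34 stands for no single pair.

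In the lower part of the pathway, where ATP is gained, 0 of 5 genes passed an unadjusted p of 0.05 in limma. Gapdh, which starts it, read 11.78, 11.63 and 11.81 in the controls and 11.80, 11.95 and 11.77 in the NPMc+ samples. These arrays overlapped, and the difference of 0.10 ± 0.18 had an interval from -0.34 to 0.54. The other probe sets of Gapdh differed by 0.02 and 0.09. Phosphoglycerate kinase Pgk1 differed by 0.04 ± 0.19, phosphoglycerate mutase Pgam1 by 0.18 ± 0.23 and the neuronal enolase Eno2, a dim probe set at a mean of 3.31, at -0.03 ± 0.19.

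Pkm, the pyruvate kinase of most tissues, read 9.65, 9.62 and 9.90 in the controls and 10.15, 10.18 and 9.90 in the NPMc+ samples. NPMc+ was above control by 0.50 and 0.55 in pairs 1 and 2 and level with it in pair 3, for a mean of 0.35 ± 0.20 (unadjusted p = 0.126 in limma), or 0.53 without pair 3. One value per gene does not separate the splice forms of Pkm. Pgk1 and Pdk3 lie on the X chromosome; in pairs 1 and 2, where Xist differed by more than 5 log2 units, Pgk1 differed by -0.04 and 0.27 and Pdk3 by -0.11 and 0.29.

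Lactate is formed by lactate dehydrogenase and leaves through the Slc16a carriers. Slc16a1, the carrier MCT1, read 7.03, 6.76 and 6.93 in the controls and 6.62, 6.90 and 6.72 in the NPMc+ samples. The groups overlapped, and the difference was -0.16 ± 0.19. Ldha, the subunit that favours lactate formation, differed by 0.11 ± 0.19 and Ldhb, which favours the reverse reaction, by 0.09 ± 0.20. The HIF-responsive exporter Slc16a3 (MCT4) differed by -0.01 ± 0.25, with pair 3 at 0.61 and pair 2 at -0.52. The intervals of Ldha and Ldhb, -0.34 to 0.56 and -0.39 to 0.56, leave out a 1.5-fold difference in either direction. Ldha was read from 1 probe set with a mean of 4.45, near the array medians of 3.90 to 3.99. Its interval describes the values of that probe set only.

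The pyruvate dehydrogenase kinases, which keep pyruvate out of the mitochondrion, had 0 of 4 genes at an unadjusted p under 0.05 in limma. Pdk3 read 7.98, 7.78 and 7.84 in the controls and 7.87, 8.07 and 8.01 in the NPMc+ samples, an overlap of the groups with a difference of 0.11 ± 0.19. Pdk2 differed by 0.10 ± 0.18 and Pdk4, at the edge of the filter with a mean of 3.02, at -0.18 ± 0.21. Pdk1 was the uneven one. Its brighter probe set differed by 0.72, -0.68 and -1.02 in pairs 1, 2 and 3, and its dimmer one by -0.33, 1.15 and 0.14, with opposite signs in every pair. The means were -0.32 and 0.32, so no direction can be given for Pdk1.

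In the pentose phosphate pathway 0 of the 4 genes measured passed an unadjusted p of 0.05 in limma. Pgd, which makes NADPH and ribulose 5-phosphate, read 8.69, 8.14 and 8.36 in the controls and 8.31, 8.87 and 8.64 in the NPMc+ samples. Pairs 2 and 3 were higher and pair 1 lower, and the mean was 0.21 ± 0.25. Pgls, the lactonase before it, differed by 0.29 ± 0.28, with 1.0 in pair 2 and -0.36 in pair 3.

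Taldo1, the transaldolase that links the branch back to glycolysis, read 8.48, 7.75 and 8.55 in the controls and 8.17, 8.90 and 8.10 in the NPMc+ samples. It was higher by 1.15 in pair 2 and lower in the others, at -0.31 and -0.45, so that its mean of 0.13 ± 0.33 turned to -0.38 without pair 2. Rpia, the ribose 5-phosphate isomerase, differed by -0.05 ± 0.23.

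Hif1a, the regulator on the list, read 8.0, 8.36 and 8.20 in the controls and 8.08, 7.72 and 7.88 in the NPMc+ samples. It was lower in pairs 2 and 3, at -0.64 and -0.32, and higher by 0.08 in pair 1, with a mean of -0.29 ± 0.21 (95% interval -0.79 to 0.21, unadjusted p = 0.204 in limma). The difference was -0.12 without pair 2 and -0.48 without pair 1. A second probe set was lower in every pair, at -0.29, -0.31 and -0.68. HIF-1 is controlled mainly through the stability of the protein, which arrays do not measure.

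The 30 genes as a list differed from pair to pair. In pair 2, 24 of the 30 differences lay above 0, where pairs 1 and 3 had 15 each, and over all genes tested the shares above 0 were 54.5% in pair 2, 50.4% in pair 1 and 53% in pair 3. At 0.5 log2 units or more, 12 of the 30, or 40%, were higher in pair 2, beside 20.2% of all genes. The corresponding shares were 13.3% beside 8.78% in pair 1 and 20% beside 15.2% in pair 3. Pair 2 was the highest of the 3 in 15 of the 30 genes, beside 37.9% of all genes tested. Tpi1, Pgk1, Slc16a1 and Taldo1 were above 0 in pair 2 and below 0 in the other pairs, and 0 genes showed the opposite pattern. For Pgk1 the steps were small, at -0.04, 0.27 and -0.11 in pairs 1, 2 and 3. The shares of all genes tested with these patterns were not counted, so the counts describe the list only.

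The median over 14 genes of cycling cells was also highest in pair 2, at -0.19, 0.12 and -0.31 in pairs 1, 2 and 3. In pair 2, 9 of the 14 were above 0, against 2 and 1 in the others. Not every gene followed the median: Mki67 differed by -0.20, -0.25 and -0.33 and Rrm2 by -0.10, -0.48 and -0.42. Of the 14 genes, 3 lay above 0 and 11 below in the mean of the pairs. Their mean level was 8.57 to 8.82 on the control arrays and 8.51 to 8.77 on the NPMc+ arrays; their part in the result was not tested. The median over the 30 glycolysis and pentose phosphate genes was -0.01, 0.31 and 0.04 in pairs 1, 2 and 3, and without pair 2 the median of the mean differences was 0.001.

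**Figure D3:**
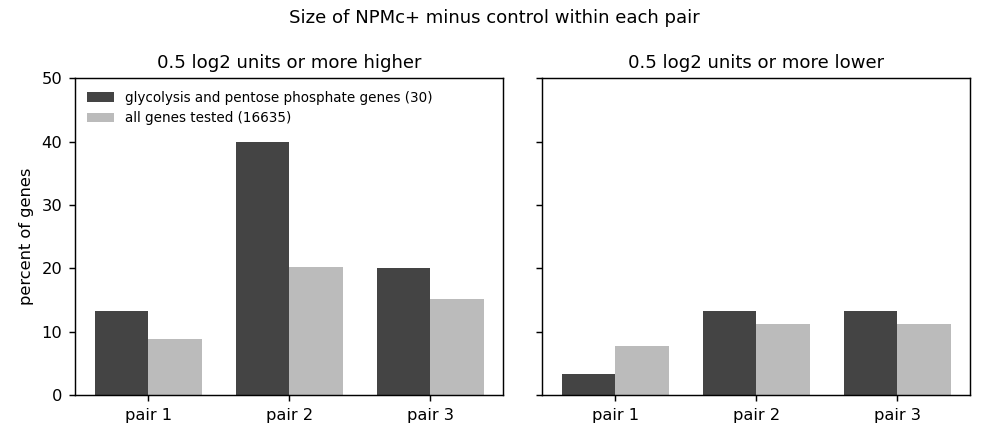
Percent of genes (y axis) that were at least 0.5 log2 units higher (left) or lower (right) in NPMc+ within each pair, for the 30 glycolysis and pentose phosphate genes and for all 16635 genes tested. The share of the 30 genes that were higher is 40% in pair 2, beside 13.3% in pair 1 and 20% in pair 3.

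The pairs set the precision. The SD of the 3 pair differences had a median of 0.47 log2 units over the 30 genes, beside 0.33 over all genes tested, and the SE ran from 0.18 to 0.40. The 95% intervals of 24 of the 30 genes lay within a 2-fold difference in either direction, beside 83.6% of all genes tested. Those of 8 lay within 1.5-fold, for which the share over all genes was not counted. The widest intervals belonged to Pfkm, Pfkl, Pdk1, Tpi1 and Taldo1, whose pair differences had SDs of 1.13, 1.09, 0.92, 0.91 and 0.88.

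Neighbouring pathways were read from 8 lists of 102 genes, of which 86 were tested. In limma, 15 had a higher and 1 a lower level with an unadjusted p under 0.05, that is 17.4% and 1.16%, beside 5.95% and 3.02% of all genes tested, and 0 passed the adjusted threshold. The median over the 86 was 0.08 log2 units, beside 0.03 over all genes. These lists were chosen with earlier results of these data known, so the shares describe the lists only.

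Branches that leave glycolysis held 3 of 15 higher genes and 0 lower at that p, beside 5.95% and 3.02% of all genes tested. Pygb, the brain-type glycogen phosphorylase, which frees glucose 1-phosphate from glycogen, read 5.61, 5.43 and 5.67 in the controls and 6.54, 6.72 and 6.48 in the NPMc+ samples. The groups lay apart in every pair, and Pygb was 2.01-fold higher (1.01 ± 0.19 log2 units, unadjusted p = 0.00143, adjusted p = 0.296 in limma). Phgdh, which diverts 3-phosphoglycerate into serine synthesis, read 6.40, 6.22 and 6.32 against 6.95, 7.13 and 7.03 and was 1.65-fold higher (0.72 ± 0.18, adjusted p = 0.398 in limma). Gys1, a glycogen synthase, was 1.44-fold higher (0.53 ± 0.19).

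Around pyruvate, 2 of 10 genes passed an unadjusted p of 0.05 as higher in limma and 0 as lower. Beside this and the next 2 lists, the shares over all genes tested were 5.95% and 3.02%. Pdp2, a phosphatase that switches pyruvate dehydrogenase back on against the kinases above, differed by 0.52 ± 0.21. Pdpr, the regulatory subunit of the related phosphatase Pdp1, differed by 0.54 ± 0.20, and Pdp1 itself by -0.12 ± 0.20. The other 8, with Pdp1 and the subunits of the dehydrogenase itself among them, had differences between -0.28 and 0.11. Of the gluconeogenesis genes, 1 of 6 was higher: Fbp1, which reverses the phosphofructokinase step, read 4.80, 3.89 and 4.95 in the controls and 5.68, 6.60 and 5.53 in the NPMc+ samples. The step was 2.71 in pair 2 against 0.88 and 0.58 in the others, and the mean was 1.39 ± 0.41 (2.62-fold, unadjusted p = 0.0125, adjusted p = 0.447 in limma). Among other carriers 2 of 12 were higher, Slc16a6 by 0.52 ± 0.18 and the pyruvate and lactate carrier Slc16a7 by 0.75 ± 0.30.

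Of other glycolytic isoforms, 0 of 14 were higher and 1 was lower at that p, beside 5.95% and 3.02% of all genes tested. Adpgk, an ADP-dependent glucokinase outside the hexokinase family, read 7.94, 8.01 and 8.03 in the controls and 7.46, 7.39 and 7.38 in the NPMc+ samples. It was lower by a near equal step in each pair, -0.58 ± 0.18 log2 units (1.5-fold, unadjusted p = 0.0143, adjusted p = 0.453 in limma), whereas the hexokinases Hk2 and Hk3 were higher. Of other pentose phosphate genes, 1 of 7 was higher, the ribose phosphate pyrophosphokinase Prps2 at 0.44 ± 0.17.

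Among the regulators of HIF, 4 of 10 passed an unadjusted p of 0.05 as higher in limma and 0 as lower. Over all genes tested the shares were 5.95% and 3.02%, and these lists too were chosen with earlier results of these data known. Hif1an, which hydroxylates and restrains HIF, differed by 0.52 ± 0.20, the prolyl hydroxylase Egln2, which marks HIF for destruction, by 0.58 ± 0.21, and Cited2, which competes with HIF for a coactivator, by 0.52 ± 0.21. The fourth was Meis1, a homeobox factor known to activate Hif1a in stem cells, at 0.86 ± 0.23. Of the 10, 6 lay above 0 and 4 below, and the medians were 0.28, 0.20 and -0.03 in pairs 1, 2 and 3. Hif3a was the lowest, at -0.34 ± 0.18, and lay below 0 in every pair. Epas1, left out of the tests as dim, differed by -0.42, -0.68 and -0.23 in pairs 1, 2 and 3. Of HIF-responsive genes outside glycolysis, 2 of 12 were higher: Vegfa by 0.45 ± 0.18 and Ndrg1 by 1.09 ± 0.23. Ndrg1 read 7.86, 7.82 and 8.26 in the controls and 9.19, 9.23 and 8.79 in the NPMc+ samples, 2.13-fold higher without overlap (adjusted p = 0.340 in limma). The other 10 of that list had differences between -0.35 and 0.50.

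**Figure D4:**
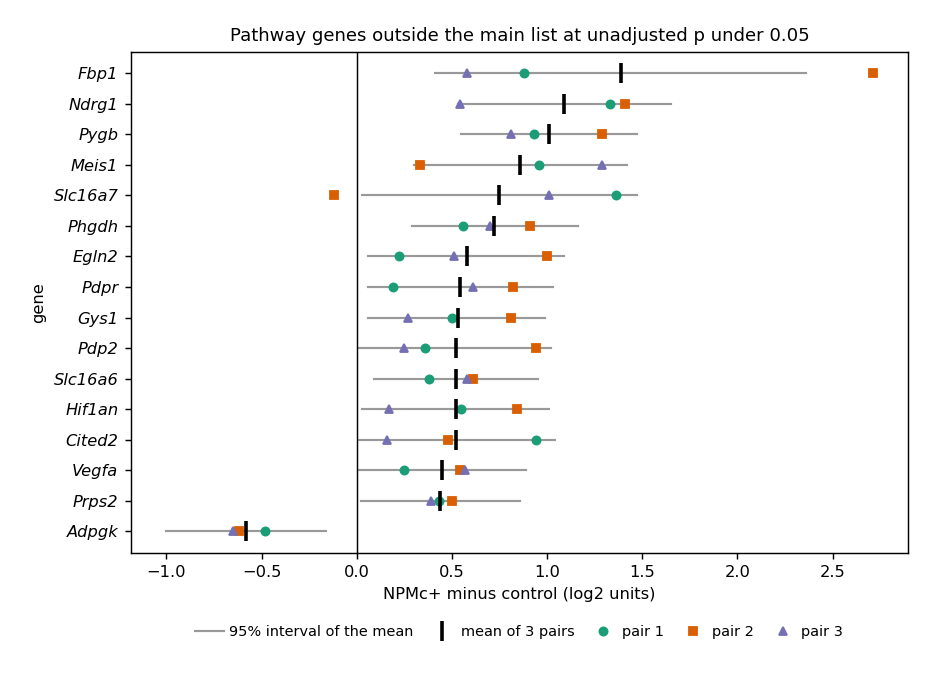
NPMc+ minus control in log2 units (x axis) for the 16 genes of the neighbouring pathway lists at an unadjusted p under 0.05, with symbols and lines as in the plot of the 30 genes. Pygb, Phgdh, Prps2, Slc16a6 and Adpgk have close pairs, whereas Fbp1 spans 0.58 to 2.71 and Slc16a7 lies at -0.12 in pair 2.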

How the data were processed

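Per the labels, each array holds RNA of a pool of animals; groups and replicate numbers come from the sample titles. The deposited table gives log2 expression values, and the submitters' processing notes name RMA; the sources used here give neither its version nor the genome build or later steps. The median of an array was 3.90 to 3.99. Any of the 5 other pairings gave equal pair means in at most 0.343% of probe sets, and deviations from the group means correlated at -1 within each pair, so a replicate effect had been taken out of the deposited values.

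Of the probe sets, 23521 had 1 symbol, 1814 several and 16010 none; the brightest single-symbol probe set stood for each of 22180 genes. Genes whose mean lay under percentile 25 (3.01 log2 units) were left out. NPMc+ minus control was tested with limma 3.58.1 (R 4.3.3; lmFit and eBayes, two-sided test), the pair being a block, 2 residual and 4.54 prior degrees of freedom, and Benjamini-Hochberg adjustment over the 16635 genes. An unadjusted p under 0.05 at the median SE of 0.202 needs a 1.4-fold difference. Simulation gave 10 sets of 16635 genes tied in the same way. In these sets, 5.05% of unchanged genes had p under 0.05 with the block and 19.6% without it. Whether these rates hold for the arrays, whose pools differed in sex-linked RNA and cell type markers, was not tested. The members, the lists and the blocked design were chosen with earlier results of these data known, and array number limits the precision. Full array values are given for genes at unadjusted p under 0.05, those of 1 sign in all pairs and at least 0.4 log2 units, and the brightest of each step; Pkm was added after its values were seen. Alternatives changed the block, normalization, filter, probe set choice, variance prior and pairs used. Figures used matplotlib 3.10.9 in Python 3.11.15.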

Additional observations from a re-analysis of the deposited data

How the results depend on the processing

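The count of 0 of the 30 genes past the adjusted threshold in limma held under every alternative; the lowest adjusted p was 0.442 with the block and 0.0766 without it. With no replicate block, 7 genes passed an unadjusted p of 0.05 as higher and 0 as lower, Slc2a1, Pfkfb3, Aldoc and Pkm joining Hk2, Hk3 and Pfkl, beside 15% and 9.85% of all genes; that fit counts the tied values as independent. With the block and every pair, the count stayed between 2 and 4, beside 4.63% to 7.06% of all genes. Hk3 was lost after quantile normalization, among genes above the 50th percentile and with an intensity trend, and Pfkfb3 was gained without the filter. With 1 pair left out the count ran from 1 to 5 higher, beside 4% to 5.61% of all genes. The count of lower genes ran from 0 to 1, namely Pdk1 without pair 1 (-0.85), beside 2.61% to 2.94% of all genes. The median difference ran from 0.001 to 0.206. Without pair 1, Pfkm (1.01), Pfkfb3 (0.92) and Aldoc (0.73) were gained and Hk3 was lost.

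The sign of a difference turned in 20 cases over 17 genes when a pair was left out, and in 0 of them was the value past an unadjusted p of 0.05. With 1 pair left out at a time the differences ranged as follows for these 17 genes: Slc2a3 -0.02 to 0.22, Pfkm -0.09 to 1.01, Pfkp -0.35 to 0.16, Pfkfb4 -0.29 to 0.24, Tpi1 -0.57 to 0.30, Gapdh -0.01 to 0.17, Pgk1 -0.07 to 0.12, Pgam1 -0.02 to 0.43, Eno2 -0.13 to 0.10, Ldhb -0.08 to 0.23, Slc16a3 -0.31 to 0.25, Pdk1 -0.85 to 0.02, Pdk2 -0.01 to 0.19, Pgls -0.07 to 0.61, Pgd -0.04 to 0.51, Rpia -0.22 to 0.22 and Taldo1 -0.38 to 0.42. For the other 13 genes the ranges were Slc2a1 0.27 to 0.48, Hk1 0.06 to 0.64, Hk2 0.41 to 0.86, Hk3 0.37 to 0.70, Pfkl 0.57 to 1.60, Pfkfb3 0.35 to 0.92, Aldoc 0.21 to 0.73, Pkm 0.25 to 0.53, Ldha 0.01 to 0.24, Slc16a1 -0.31 to -0.04, Pdk3 0.03 to 0.23, Pdk4 -0.38 to -0.06 and Hif1a -0.48 to -0.12. Eno2 turned to 0.03 after quantile normalization, and Pdk1 came to 0.00 as the mean of its probe sets. The causes were not tested.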
